A study of Mus musculus with 96 samples.

Results

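The libraries labelled vascular were compared with those labelled adipose in a multi-tissue transcriptome series of wild-type mice and mice without the transcription factor scleraxis (*Scx*). All 6 vascular and all 6 adipose libraries were taken, 12 of the 96 libraries in the series, and every gene was compared between the 2 tissues with genotype as a covariate. Each tissue had 3 wild-type and 3 *Scx*-/- libraries, all from mice aged 3 weeks, and the labels name no treatment. Whole organs were frozen at necropsy. The labels did not say which vessel or which fat depot was dissected, nor whether libraries with the same number came from the same mouse, so p-values below measure the spread between these libraries. RNA was read by MuSeq, a method in which barcoded samples are pooled and mostly the 3′ ends of polyadenylated transcripts are sequenced.

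Brown adipose tissue burns fatty acids for heat through the uncoupling protein UCP1 and surrounds large thoracic vessels, while white adipose tissue stores lipid and secretes leptin. The wall of a large artery consists of smooth muscle cells between sheets of elastin, lined by endothelium. The exocrine pancreas lies in the mesenteric fat beside the stomach, spleen and duodenum. Its acinar cells make digestive enzymes in amounts that dominate their messenger RNA, and its islets make insulin and glucagon.

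The vascular libraries held 77132 to 354795 counts and 4958 to 8599 detected genes, and the adipose-labelled libraries held 100469 to 498158 counts and 2808 to 7585 genes. Depth ran opposite ways with genotype, since the vascular libraries were deeper in wild-type mice (154625 to 354795 counts, against 77132 to 152689 in *Scx*-/- mice) and the adipose-labelled ones in *Scx*-/- mice (333668 to 498158, against 100469 to 140132). Of 41575 gene symbols, 13838 had a count in at least 1 of the 12 libraries and were tested. *Scx* itself was read in 1 library, wild-type vascular replicate 1, with 4 counts (11.3 CPM, where CPM are counts scaled to a library total of 1e+06), and was at 0 in the other 11, so the knockout could not be checked in these tissues at this depth.

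The contents of the libraries did not match the adipose label. Pancreatic digestive enzymes took 59.6% to 71.0% of all counts in the 6 adipose-labelled libraries (median 69.6%), and the acinar granule and Reg family genes a further 7.26% to 9.62%. General adipocyte genes took 0.0285% to 0.0817% there, a median that ranked 16 among the 16 tissues of the series. Computed on the counts left after both acinar lists were removed, the adipocyte median was 0.180%, against 2.79% in the vascular libraries. The adipose-labelled libraries are therefore called by their label below and not by a tissue.

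The vascular libraries held both vessel wall and fat. Adipocyte genes took 2.09% to 3.92% of their counts and brown fat genes 0.463% to 1.66%, and both medians ranked 1 of 16. Elastic fibre and vessel matrix genes took 1.22% to 3.02%, also rank 1 of 16, and smooth muscle contractile genes 0.726% to 1.80%, rank 6. Pancreatic digestive enzymes took 0.0558% to 0.457% there, with a median of 0.0941% that ranked 6, against 0.00100% in the cortex, the lowest of the 16. In whole-tissue samples such as these, fewer cells of a type and less RNA per cell cannot be told apart.

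**Figure D1:**
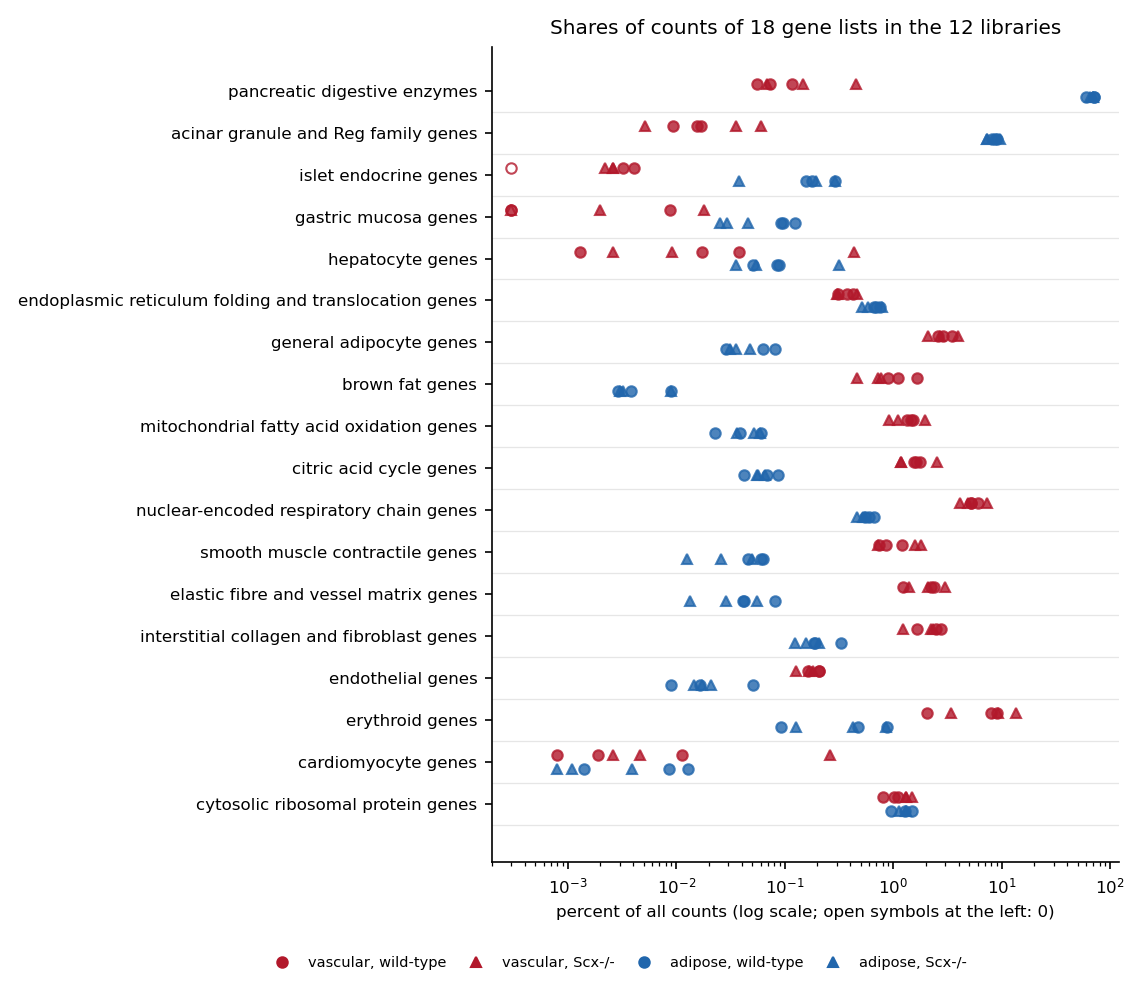
Share of all counts taken by 18 gene lists in each of the 12 libraries, as percent on a log scale, with circles for wild-type, triangles for *Scx*-/-, red for vascular and blue for adipose-labelled libraries, and open symbols at the left for 0. Pancreatic enzymes lie at 59.6% to 71.0% in every adipose-labelled library, and adipocyte, brown fat, smooth muscle and vessel matrix genes lie higher in every vascular library.

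Across all genes, 311 were higher in the vascular libraries (2.25% of those tested) and 238 were higher in the adipose-labelled libraries (1.72%) at an adjusted p under 0.05 (edgeR quasi-likelihood test, Benjamini-Hochberg). In CPM, counts scaled to each library's total, the 6 values of one tissue did not overlap the 6 of the other for 260 of the 311 and 97 of the 238. Over all genes this was so for 750 higher in vascular (5.42%) and 99 higher in adipose (0.715%). On TMM-scaled CPM, a scale added after seeing the data, it was so for 221 of the 311 and 136 of the 238, and for 303 (2.19%) and 160 (1.16%) of all genes. Statements on overlap below refer to CPM. Fold changes were computed with TMM scaling, which assumes that most genes do not differ, and the median log2 fold change (vascular over adipose) of all genes tested was 0.62. Scaled by library totals, the median was 1.63 and the calls were 1686 higher in vascular and 154 higher in adipose (the enzymes fill most of each adipose-labelled total). CPM refer to all counts in a library, and log2 fold changes are TMM-scaled, so the 2 need not match. Folds given below as at least were computed on CPM, with 3 counts over the group taken as the limit, and hold on that scale only. On the TMM scale they would be lower for genes higher in vascular and higher for genes higher in adipose. Of genes tested, 4511 were at 0 in all 6 libraries of 1 tissue. With these set to the fold that 3 counts over the group allow on CPM, the median of all genes was 0.28. The other genes stayed TMM-scaled there, so that median mixes 2 scales. Leaving out each library in turn gave 230 to 305 genes higher in vascular and 186 to 245 higher in adipose.

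**Figure D2:**
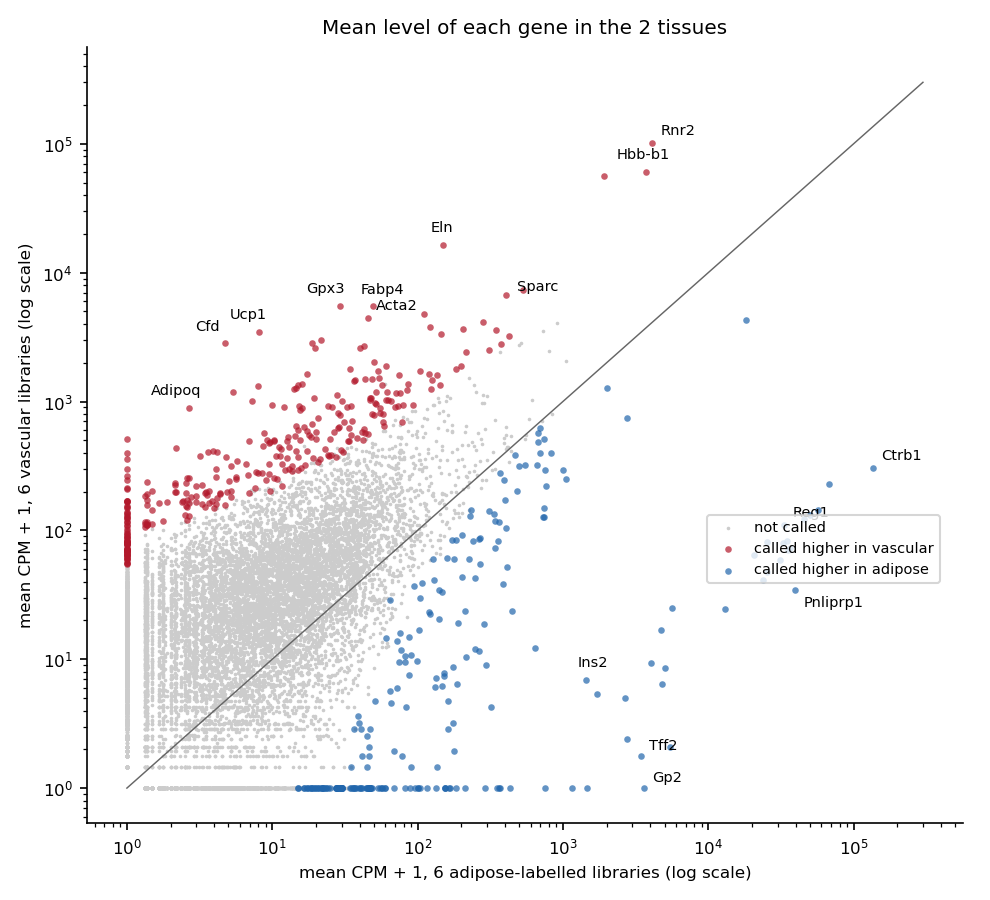
Mean CPM + 1 of each of the 13838 genes in the 6 adipose-labelled (x axis) and the 6 vascular libraries (y axis), both on log scales, with the 311 genes called higher in vascular in red, the 238 called higher in adipose in blue, the others in grey and equal values on the line. The digestive enzymes sit at the far right, and *Rnr2*, *Hbb-b1* and *Eln* at the top.

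The pancreatic digestive enzymes set the adipose-labelled libraries apart. Of 25 enzyme genes tested, 24 were higher in the adipose-labelled libraries and none in the vascular ones, with a median log2 fold change of -10.29 against 0.62 over all genes. *Ctrb1*, which encodes the protease precursor chymotrypsinogen B, was at 113900 to 155800 CPM in the adipose-labelled libraries (median 138900) and at 64.8 to 904 CPM in the vascular ones (median 180). The groups were far apart in every library (log2 fold change -10.27, SE 0.53, adjusted p = 1.77e-79, edgeR), although within the *Scx*-/- libraries alone the adjusted p was 0.121. The enzyme list had 20 calls there against 24 over all libraries, with *Cela1* (0.201) and *Ctrc* (0.472) also lost, and the granule list 14 against 17, with *Zg16* (0.151) lost. *Cela2a*, an elastase, was at 60740 to 75640 CPM against 64.8 to 609 CPM. *Try4*, a trypsin precursor, was at 30300 to 57410 CPM against 11.3 to 334 CPM. The copies of the trypsin, elastase and amylase families resemble each other closely, so reads of one may be counted under another.

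To show what the promoters of such genes hold, 4 are printed with the motifs in capitals: a protease and an elastase gene from the pancreas list, and for contrast *Acta2* of smooth muscle and *Ucp1* of brown fat. The letters searched were CACCTG and TTCCCA on both strands, the 2 half-sites that the acinar factor complex of PTF1A and RBPJL is known to bind. TATAAA was searched on the printed strand only. The CArG box of smooth muscle genes was searched on both strands, in its strict form only, with none but A and T inside. The *Acta2* promoter is known for CArG boxes with another base inside, which this search does not mark. Sequences are RefSeq promoters on GRCm38.p6, from 250 bases before to 50 bases after the start, written 5′ to 3′ on the strand of the gene. TGGGAA and CAGGTG in capitals are matches on the opposite strand.
*Ctrb1* (chr8:111690961-111691260, minus strand): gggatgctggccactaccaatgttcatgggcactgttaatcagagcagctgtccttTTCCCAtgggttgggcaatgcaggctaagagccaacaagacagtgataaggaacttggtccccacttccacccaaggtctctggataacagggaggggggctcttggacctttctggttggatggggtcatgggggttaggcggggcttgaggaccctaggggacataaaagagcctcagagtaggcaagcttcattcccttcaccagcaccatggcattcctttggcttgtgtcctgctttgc
*Cela2a* (chr4:141825956-141826255, minus strand): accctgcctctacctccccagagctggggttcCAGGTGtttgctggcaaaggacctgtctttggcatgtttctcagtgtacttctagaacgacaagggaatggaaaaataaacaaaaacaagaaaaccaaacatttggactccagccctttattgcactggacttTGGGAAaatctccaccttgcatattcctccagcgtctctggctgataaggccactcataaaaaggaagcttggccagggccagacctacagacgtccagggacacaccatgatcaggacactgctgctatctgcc
*Acta2* (chr19:34255324-34255623, minus strand): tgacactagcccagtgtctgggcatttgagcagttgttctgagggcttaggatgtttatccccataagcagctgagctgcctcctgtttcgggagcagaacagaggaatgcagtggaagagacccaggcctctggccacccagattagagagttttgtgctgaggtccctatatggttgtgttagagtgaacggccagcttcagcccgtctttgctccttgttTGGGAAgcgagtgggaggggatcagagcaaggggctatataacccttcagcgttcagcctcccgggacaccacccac
*Ucp1* (chr8:83290098-83290397, plus strand): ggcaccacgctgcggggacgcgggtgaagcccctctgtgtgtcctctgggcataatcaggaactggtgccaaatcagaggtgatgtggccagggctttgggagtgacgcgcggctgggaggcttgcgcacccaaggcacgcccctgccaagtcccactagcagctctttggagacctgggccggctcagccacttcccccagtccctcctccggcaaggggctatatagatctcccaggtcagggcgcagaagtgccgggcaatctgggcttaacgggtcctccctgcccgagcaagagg

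Of the 32 symbols in the enzyme list, 26 had a promoter in the RefSeq table. CACCTG stood in 15 of them (57.7%), against 20.03% of all 27025 promoters, and TTCCCA in 13 of the 26, against 25.5%. Both stood in 8 (30.8%), against 5.27% of all promoters, and TATAAA in 11 (42.3%), against 8.88%. Among 17 brown fat promoters CACCTG stood in 23.5%, TATAAA in 17.6% and TTCCCA in 0. Among 14 smooth muscle promoters TTCCCA stood in 28.6% and the CArG box in 1, against 1.57% of all, and TTCCCA stood in 33.3% of the vessel matrix promoters. These are matches of letters in a fixed window and no test was made of them, and several enzyme genes are copies of one another and share promoter sequence.

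The lipases of pancreatic juice followed the proteases. *Pnliprp1*, a lipase-related protein, was at 20300 to 62880 CPM in the adipose-labelled and 9.16 to 91.7 CPM in the vascular libraries (log2 fold change -11.45, SE 0.59, adjusted p = 7.00e-81, edgeR). *Pnliprp2* was at 3563 to 7448 CPM against a single count in 1 vascular library. *Pla2g1b*, the pancreatic phospholipase, was at 387 to 2319 CPM and at 0 in all 6 vascular libraries, which makes it at least 296-fold higher when 3 counts over the vascular group are taken as the limit. The carboxypeptidases *Cpa1* and *Cpb1*, the bile salt lipase *Cel* and the ribonuclease *Rnase1* ranged from 22320 to 49170 CPM over the adipose-labelled libraries and from 0 to 229 CPM over the vascular ones.

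*Ctrc*, which encodes the regulatory protease chymotrypsin C, varied between adipose-labelled libraries as no other enzyme named here did. Its CPM was 6180, 6599 and 10360 in wild-type replicates 1 to 3, 157 and 144.5 in *Scx*-/- replicates 1 and 3, and 5392 in *Scx*-/- replicate 2. The 3 wild-type values lay above the 3 *Scx*-/- ones, and a dependence of the tissue difference on genotype was not called (adjusted p for the interaction = 0.801, edgeR). Reads of near copies may be counted under it. In the vascular libraries it was at 0 in 4, with 1 and 2 counts in the others. The tissue difference passed the test over all libraries (log2 fold change -11.20, SE 0.85, adjusted p = 6.45e-20, edgeR) and, as for *Ctrb1*, not within the *Scx*-/- libraries alone (adjusted p = 0.472).

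Of 18 acinar granule and Reg family genes, 17 were higher in the adipose-labelled libraries (median log2 fold change -9.73). *Reg1*, a secreted lectin of acinar cells, was at 19440 to 44570 CPM against 11.3 to 170 CPM, and *Zg16*, a zymogen granule protein, at 16640 to 24270 CPM against 0 to 196 CPM. *Gp2*, the main protein of the granule membrane, was at 1796 to 5002 CPM and at 0 in every vascular library, at least 1419-fold higher. *Cuzd1*, another granule membrane protein, was at least 440-fold higher (906 to 2271 CPM against 0). A count of 0 over the vascular libraries allows up to 2.87 CPM. *Tff2*, a trefoil peptide of pancreas and stomach, was at 2707 to 4617 CPM against 1 count in 1 vascular library.

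Transcription factors of acinar cells were read at low levels. Of 7, *Bhlha15*, *Rbpjl* and *Ptf1a* were higher in the adipose-labelled libraries. *Bhlha15*, which drives the secretory apparatus, was at 28.5 to 221 CPM (median 159) and at 0 in all vascular libraries, at least 57.6-fold higher. *Rbpjl* was at 0 to 342 CPM (median 112) against 31.0 CPM in 1 vascular library and 0 in the other 5 (log2 fold change -5.31, SE 1.00, adjusted p = 1.22e-05, edgeR). *Ptf1a* rested on 1 library: adipose-labelled wild-type replicate 3 held 27 of its 28 counts, and without that library its adjusted p was 0.624. Its call was also lost without any one of 6 other libraries (adjusted p = 0.0509 to 0.179). *Gata4* and *Nr5a2* were at 0 in the vascular libraries and had counts in 2 and 3 of the adipose-labelled ones, which did not pass the test. *Xbp1*, an unfolded protein response factor of all secretory cells, was at 45.3 to 255 CPM in the vascular and 129 to 295 CPM in the adipose-labelled libraries and did not pass (adjusted p = 0.0950). That held in 15 of 22 alternative settings, while *Xbp1* passed by DESeq2 (adjusted p = 0.000658) and with RLE scaling (0.0246), among others.

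The endocrine pancreas was present beside the exocrine one. Islet genes took 0.0378% to 0.293% of the counts in the adipose-labelled libraries and at most 0.00410% in the vascular ones, and 7 of 16 tested were higher in adipose. *Ins2*, the main insulin gene of the mouse, was at 264 to 2419 CPM in the adipose-labelled libraries, lowest in *Scx*-/- replicate 2, and had 4 counts in all over 2 vascular libraries (log2 fold change -9.55, SE 0.71, adjusted p = 3.48e-38, edgeR). *Ins1* was at 27.0 to 180 CPM and *Iapp*, the amylin gene, at 30.0 to 136 CPM, both at 0 in all vascular libraries and at least 28.9-fold and 27.0-fold higher. *Gcg*, which encodes glucagon, was read in 4 of the 6 adipose-labelled libraries, at 33.0 to 225 CPM, and in no vascular library. Of 9 duct genes 2 were higher in adipose, *Muc1* (0 to 219 CPM against 0) and *Spp1* (28.5 to 139 CPM against 1 count), while the duct keratin *Krt19* (adjusted p = 0.189) and the duct factor *Sox9* (adjusted p = 0.195) did not pass. Within wild-type libraries alone no duct gene was called (adjusted p = 0.0524 for *Muc1* and 0.296 for *Spp1*).

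Genes of the endoplasmic reticulum, where secreted proteins are folded and moved across the membrane, were higher in the adipose-labelled libraries for 13 of 33 (median log2 fold change -2.08). *P4hb*, protein disulfide isomerase, was at 785 to 1344 CPM against 77.8 to 440 CPM (log2 fold change -3.51, SE 0.54, adjusted p = 1.45e-08, edgeR). *Sel1l* and *Herpud1*, which act in the disposal of misfolded proteins, were at 528 to 893 and 526 to 1209 CPM against 32.1 to 201 and 96.2 to 246 CPM, without overlap. The list did not move as one: the chaperone calreticulin, *Calr*, was at 153 to 551 CPM against 182 to 878 CPM in the vascular libraries (log2 fold change -0.38, adjusted p = 0.735), a sign that turned positive when scaled by library totals. With that scaling 5 of the 33 were called, and 21 by DESeq2.

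Small shares of other upper abdominal organs were also measured in the adipose-labelled libraries. Gastric mucosa genes took 0.0253% to 0.124% of their counts, and 5 of 8 were higher there than in the vascular libraries (1 within *Scx*-/- libraries). *Tff1*, the trefoil peptide of surface mucous cells, was at 94.3 to 398 CPM against 0 to 101 CPM, and overlapped in 1 vascular library. *Pgc*, a pepsinogen of chief cells, was at 54.2 to 256 CPM against 0 to 22.4 CPM. Hepatocyte genes took 0.0357% to 0.319%, with 3 of 9 higher in adipose. That count was 0 without *Scx*-/- adipose-labelled replicate 3, 2 to 4 without any other library, 4 with a replicate block, 0 within wild-type libraries and 0 with filterByExpr. *Alb*, albumin, was at 177 to 1570 CPM in the adipose-labelled libraries and at 0 to 2694 CPM in the vascular ones and was not called (adjusted p = 0.456, edgeR). Without *Scx*-/- vascular replicate 3, which held the 2694 CPM, *Alb* was higher in adipose (adjusted p = 2.77e-06). With all libraries kept and a replicate block it was also higher in adipose (adjusted p = 9.40e-06). *Krt18*, a keratin of simple epithelia that acinar, duct and mesothelial cells share, was at 0 to 339 CPM (median 235) against 0 to 33.5 CPM (log2 fold change -5.64, SE 0.86, adjusted p = 9.09e-09, edgeR). In correlation across genes, *Scx*-/- adipose-labelled replicate 1 was nearest, of the other 95 libraries, to a stomach library (r = 0.713) and not to another adipose-labelled one. Without the acinar lists *Scx*-/- adipose-labelled replicates 1 and 3 were both nearest to it (r = 0.718 and 0.695), and their mean correlation with the vascular libraries (0.614 and 0.598) exceeded that with the other adipose-labelled ones (0.576 and 0.585). These are correlations across genes, which are not independent.

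**Figure D3:**
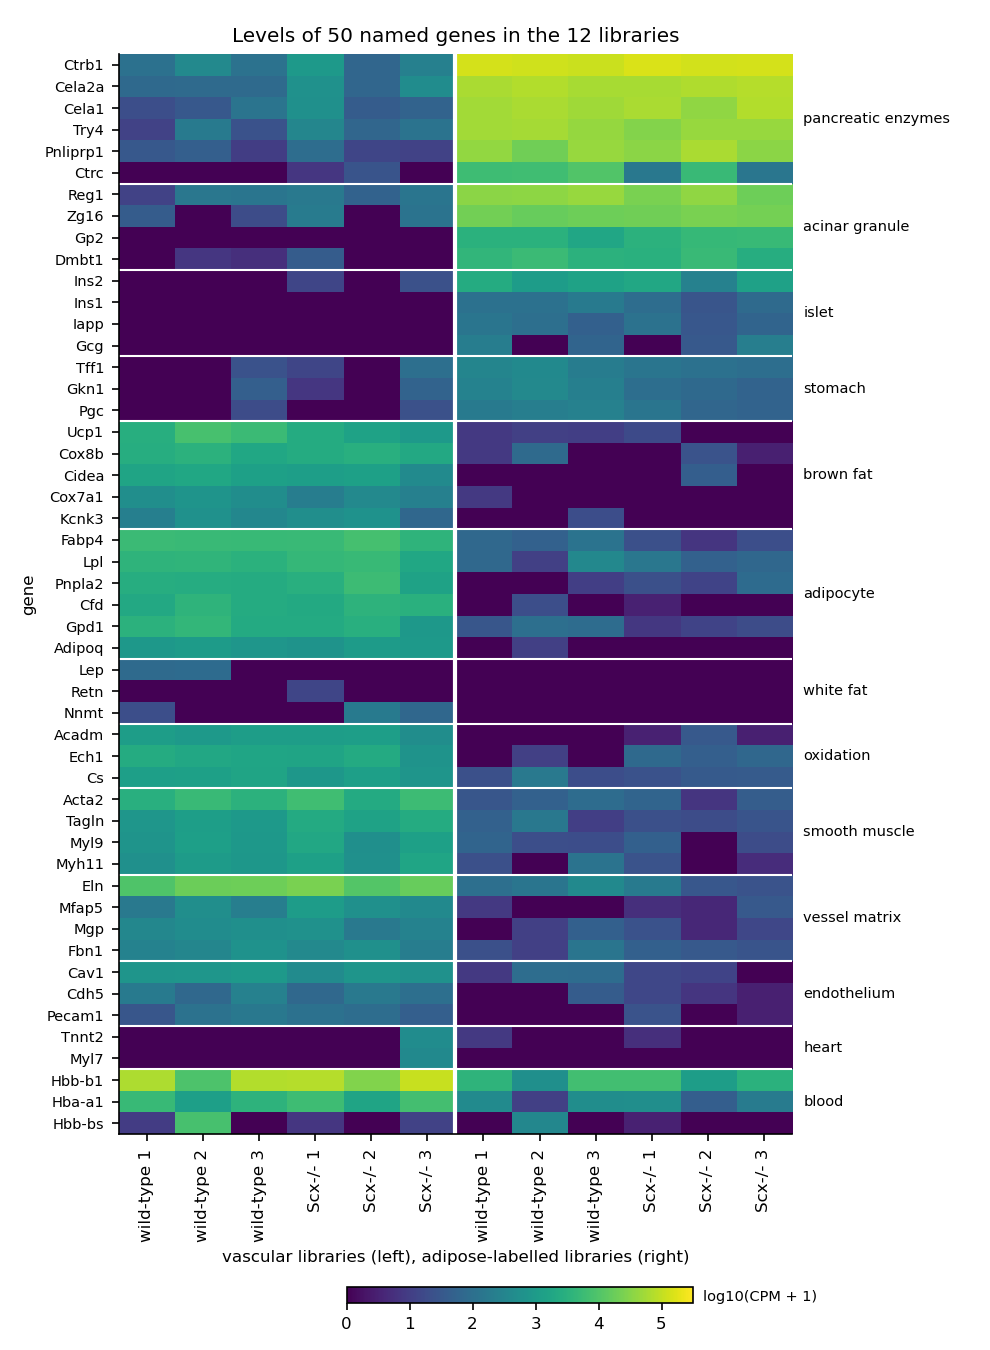
Levels of 50 genes, as log10(CPM + 1) by colour, in the 6 vascular (left) and 6 adipose-labelled (right) libraries, grouped by the tissue they mark. Pancreas, islet and stomach genes are high on the right, fat, oxidation and vessel genes on the left, *Myl7* and *Tnnt2* in *Scx*-/- vascular replicate 3 above all, and *Ctrc* is low in *Scx*-/- adipose-labelled replicates 1 and 3.

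Fat genes were high in the vascular and near 0 in the adipose-labelled libraries. Of 25 general adipocyte genes tested, 20 were higher in vascular and none in adipose (median log2 fold change 5.05, and 4.76 with genes at 0 in one tissue set to their limit on CPM). *Fabp4*, the fatty acid carrier of adipocytes, was at 3789 to 7507 CPM in the vascular libraries (median 5392) and at 5.99 to 124 CPM in the adipose-labelled ones (median 35.1). Its log2 fold change was 5.85 (SE 0.56, adjusted p = 1.11e-22, edgeR). *Adipoq*, the hormone adiponectin, was at 681 to 1063 CPM in all 6 vascular libraries and had 1 count in 1 adipose-labelled library. *Cfd*, the complement factor adipsin that adipocytes secrete, was at 2049 to 3693 CPM against 0 to 19.9 CPM (log2 fold change 8.59, SE 0.74, adjusted p = 3.68e-28, edgeR).

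Genes of lipid uptake and breakdown were among them. The triglyceride lipase *Pnpla2* was at 1498 to 5808 CPM against 0 to 82.3 CPM. *Lpl*, which takes up fatty acids from blood lipoproteins, was at 1844 to 5043 CPM against 9.95 to 370 CPM (log2 fold change 3.71, SE 0.52, adjusted p = 1.21e-10, edgeR). *Gpd1* and *Car3*, a glycerol phosphate dehydrogenase and a carbonic anhydrase that are abundant in fat, were at 850 to 4417 and 1129 to 4275 CPM against at most 99.5 and 199 CPM. *Adig*, a small adipocyte protein, was at 200 to 682 CPM and at 0 in all adipose-labelled libraries, at least 154-fold higher in vascular.

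Of 13 fatty acid synthesis genes 4 were higher in vascular, and 8 with library totals. *Thrsp*, a regulator of lipid synthesis, was at 728 to 1979 CPM against 0 to 16.1 CPM, and the elongase *Elovl6* at 72.0 to 363 CPM against a single count. *Fasn*, the fatty acid synthase, was at 73.3 to 369 CPM in 5 vascular libraries and at 1753 CPM in wild-type replicate 2, against 9.95 to 99.9 CPM. It did not pass the test (log2 fold change 1.49, SE 0.75, adjusted p = 0.299, edgeR).

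The fat of the vascular libraries carried brown fat transcripts. Of 18 brown fat genes tested, 10 were higher in vascular and none in adipose (median log2 fold change 4.74). *Ucp1* was at 2790, 7741 and 5537 CPM in the wild-type and at 2443, 1452 and 939 CPM in the *Scx*-/- vascular libraries, and at 0 to 15.9 CPM in the adipose-labelled ones (log2 fold change 7.19, SE 0.64, adjusted p = 2.60e-26, edgeR). Every vascular library exceeded every adipose-labelled one. The 3 wild-type vascular values also lay above the 3 *Scx*-/- ones, and a difference of the tissue effect between genotypes was not called (adjusted p for the interaction = 0.687). *Cidea*, a lipid droplet protein of brown fat, was at 425 to 1927 CPM against 0 to 42.0 CPM, where its 14 adipose counts were all in *Scx*-/- replicate 2. *Kcnk3*, a potassium channel of brown adipocytes, was at 67.1 to 648 CPM against 0 to 19.0 CPM.

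White fat genes were near the limit of detection in both tissues. None of 10 tested was called by edgeR with TMM scaling or by DESeq2 (3 at an unadjusted p under 0.05, all higher in vascular), and 1 was with library totals. The list took at most 0.0358% of the counts of any vascular library. *Lep*, leptin, had 28 and 13 counts in wild-type vascular replicates 1 and 2 (78.9 and 84.1 CPM) and 0 in the other 10 libraries. A count of 0 over the 6 adipose-labelled libraries allows up to 1.86 CPM, taking 3 counts as the limit. Such limits cover counting error only.

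Mitochondrial oxidation genes were higher in vascular as a large share of their lists. Of 18 fatty acid oxidation genes 14 were higher in vascular (median log2 fold change 3.67), and of 15 citric acid cycle genes 13 (median 3.68), with 0 of either list higher in adipose. *Acadm*, the medium-chain acyl-CoA dehydrogenase, was at 503 to 1193 CPM against 0 to 33.0 CPM (log2 fold change 5.67, SE 0.77, adjusted p = 5.00e-11, edgeR), and *Acaa2*, the thiolase that ends each oxidation cycle, at 1587 to 2645 CPM against 0 to 150 CPM. The 2 lists took 0.913% to 1.97% and 1.17% to 2.55% of vascular counts, and both medians ranked 1 of 16 tissues, above the heart. Heart libraries had medians of 1.03% and 1.25%.

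Of 79 nuclear-encoded respiratory chain genes 31 were higher in vascular (median log2 fold change 1.84), a count that was 66 with library totals as scaling, 21 to 31 without single libraries, 21 with a replicate block and 7 within *Scx*-/- libraries. The list took 4.09% to 7.39% of vascular counts against 0.465% to 0.661% of adipose-labelled ones. *Cox4i1*, a core subunit of cytochrome c oxidase, was at 2224 to 4953 CPM against 19.9 to 253 CPM (log2 fold change 3.14, SE 0.52, adjusted p = 2.45e-07, edgeR), and *Atp5b*, the catalytic subunit of ATP synthase, at 1932 to 3267 CPM against 124 to 342 CPM.

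Cytochrome c oxidase has subunits that come in tissue isoforms, and of 11 such genes 5 were higher in vascular (median log2 fold change 2.56). *Cox8b*, the isoform of heart, muscle and brown fat, was at 1914 to 3454 CPM in vascular and 0 to 79.6 CPM in adipose-labelled libraries (log2 fold change 5.98, SE 0.63, adjusted p = 8.46e-19, edgeR). Its ubiquitous counterpart *Cox8a* was at 375 to 1387 CPM against 9.95 to 162 CPM and did not pass (log2 fold change 1.83, SE 0.64, adjusted p = 0.0828). It did pass by DESeq2 (adjusted p = 0.0365), with filterByExpr (0.0197), after thinning (0.00569) and with library totals (1.32e-05). *Cox7a1*, likewise of heart, muscle and brown fat, was at 216 to 711 CPM against 1 count in 1 library (log2 fold change 7.06, SE 1.11, adjusted p = 3.16e-08). *Cox7a2*, its ubiquitous counterpart, was at 371 to 946 CPM against 5.99 to 129 CPM (log2 fold change 1.47, SE 0.67, adjusted p = 0.239, and 0.000374 with library totals). For both pairs the difference between isoforms was not itself tested. *Cox6a1* and *Cox6b1*, both ubiquitous, passed with log2 fold changes of 2.56 and 2.73.

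**Figure D4:**
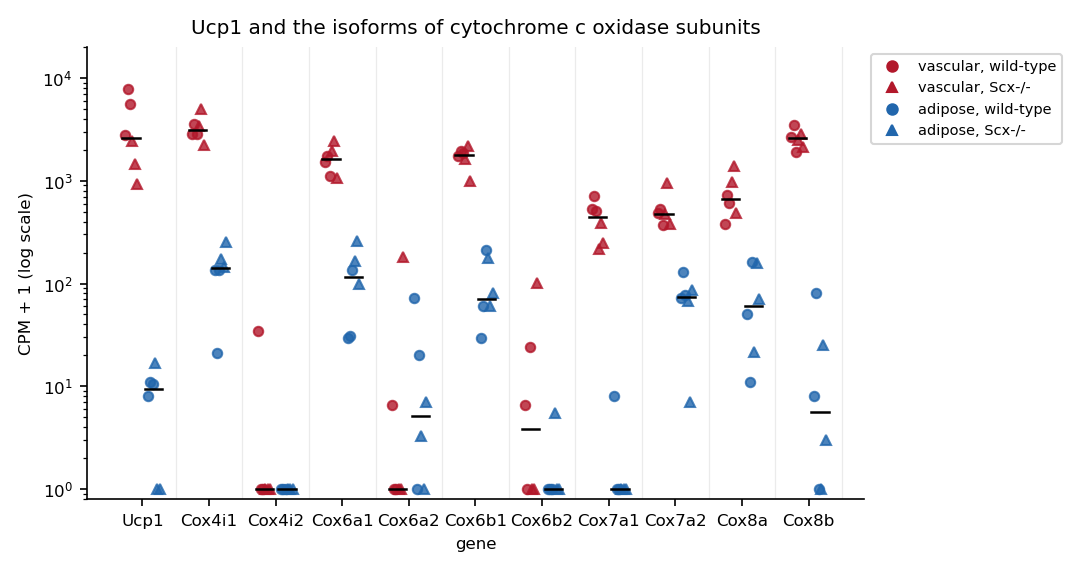
CPM + 1 on a log scale of *Ucp1* and 10 isoform genes of cytochrome c oxidase subunits in each vascular (red) and adipose-labelled (blue) library, with circles for wild-type, triangles for *Scx*-/- and a bar at the median of 6. In the adipose-labelled libraries *Cox7a1* and *Cox8b* have medians of 0 and 4.57 CPM (highest 7.14 and 79.6), and *Cox7a2* and *Cox8a* medians of 73.7 and 60.1 CPM.

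The mitochondrial ribosomal RNAs, transcribed from the mitochondrial genome, moved the same way. *Rnr2* was at 67050 to 184300 CPM in the vascular and at 2362 to 6888 CPM in the adipose-labelled libraries (log2 fold change 3.25, SE 0.42, adjusted p = 3.07e-12, edgeR). With *Rnr1* it took 10.3% to 27.3% of vascular counts, most in wild-type replicate 1, and 0.393% to 0.893% of adipose-labelled counts.

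The vessel wall was the other component of the vascular libraries. Of 18 smooth muscle contractile genes 8 were higher in vascular and none in adipose (median log2 fold change 3.83). The 8 became 17 with library totals and 14 by DESeq2, and 4 within wild-type libraries. *Acta2*, smooth muscle actin, was at 2334 to 6549 CPM against 5.99 to 85.5 CPM (log2 fold change 5.31, SE 0.56, adjusted p = 3.68e-19, edgeR). *Myh11*, the smooth muscle myosin heavy chain that marks this cell type most narrowly, was at 581 to 1688 CPM against 0 to 124 CPM (log2 fold change 4.18, SE 0.70, adjusted p = 2.59e-07). *Tagln*, *Myl9* and *Cnn1*, which bind or drive actin filaments, passed with log2 fold changes of 3.71, 3.94 and 3.58. The tropomyosin *Tpm2*, at 299 to 1231 CPM against 21.4 to 162 CPM, did not (adjusted p = 0.0756), although its values did not overlap.

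*Eln*, the elastin of arterial lamellae, was at 9490, 18310 and 19130 CPM in wild-type and at 24300, 10830 and 17060 CPM in *Scx*-/- vascular libraries. In the adipose-labelled libraries it was at 24.1 to 408 CPM, highest in wild-type replicate 3 (log2 fold change 5.68, SE 0.51, adjusted p = 7.30e-26, edgeR). Of 19 elastic fibre and vessel matrix genes 7 were higher in vascular (median log2 fold change 2.44), and 12 with library totals and 11 by DESeq2. *Mfap5*, a microfibril glycoprotein, was at 164 to 1120 CPM against 0 to 34.1 CPM, and *Loxl1*, which cross-links elastin, at 168 to 595 CPM against 0 to 30.1 CPM. *Mgp*, an inhibitor of vessel calcification, was at 168 to 616 CPM against 0 to 47.5 CPM (adjusted p = 0.00292, and 0.0516 without *Scx*-/- vascular replicate 1). *Fbn1*, the fibrillin that forms microfibrils, did not pass (log2 fold change 1.83, SE 0.75, adjusted p = 0.177).

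Interstitial collagen and fibroblast genes took 1.23% to 2.77% of vascular and 0.124% to 0.329% of adipose-labelled counts, and 6 of 19 were higher in vascular (median log2 fold change 1.75). That count was 14 with library totals, 3 without wild-type vascular replicate 3 or *Scx*-/- vascular replicate 1 and 4 to 6 without any other library. *Col1a1* and *Col1a2*, the chains of type I collagen, were at 2243 to 5697 and 1569 to 5578 CPM against 164 to 760 and 99.5 to 392 CPM, and passed with log2 fold changes of 2.15 and 2.67. *Sparc*, a matrix glycoprotein, was at 4551 to 8291 CPM against 132 to 732 CPM. *Dcn*, decorin, was at 860 to 1546 CPM against 57.1 to 401 CPM and its log2 fold change of 0.91 (SE 0.54, adjusted p = 0.389) was near the median of all genes.

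Endothelial and mural cell genes were read in small numbers. Endothelial genes took 0.127% to 0.209% of vascular and 0.00900% to 0.0513% of adipose-labelled counts, and 1 of 21 was called, *Cav1*, the caveolar coat protein that adipocytes and smooth muscle share with endothelium (445 to 916 CPM against 0 to 89.6 CPM, adjusted p = 5.78e-05, edgeR). The endothelial adhesion genes *Cdh5* (71.1 to 266 CPM against 0 to 38.0) and *Pecam1* (28.2 to 160 CPM against 0 to 25.0) did not overlap between tissues and did not pass (adjusted p = 0.229 and 0.309). With library totals 6 of the 21 were called. Of 8 pericyte genes 1 was called (4 with library totals, 3 by DESeq2, 0 within *Scx*-/- libraries), *Rgs5* (156 to 408 CPM against 0 to 9.50 CPM, adjusted p = 0.000959, and 0.496 within *Scx*-/- libraries, edgeR). In CPM, *Cspg4* and *Pdgfrb* were higher in each vascular library than in any adipose-labelled one, as were 5.42% of all genes tested. Their adjusted p were 0.0587 and 0.155 (edgeR).

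**Figure D5:**
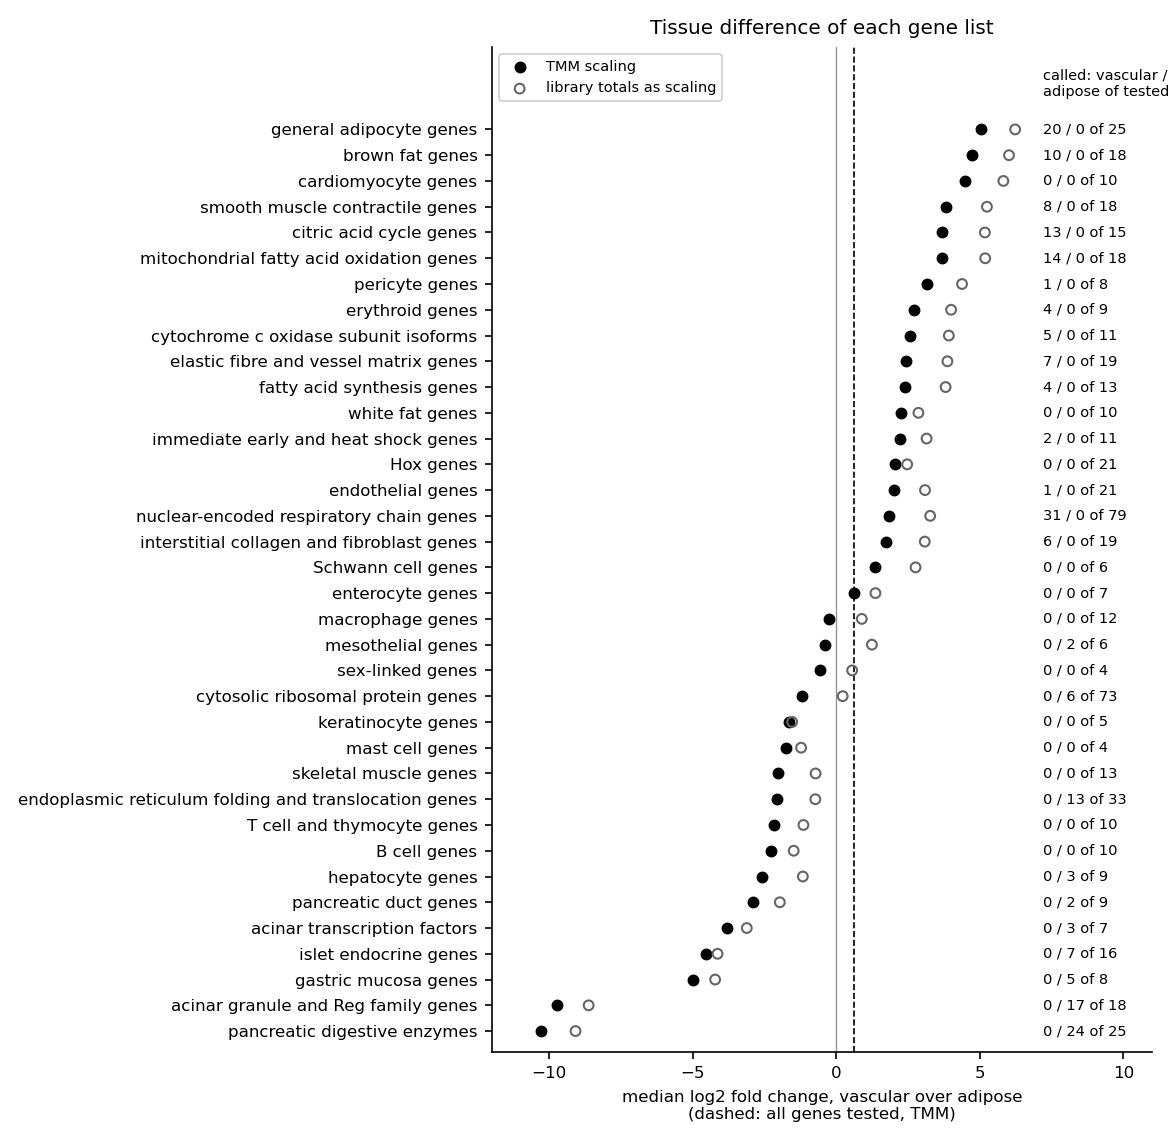
Median log2 fold change (vascular over adipose-labelled) of the tested genes of each list, filled for TMM scaling and open for scaling by library totals, with the numbers of genes called in each direction and tested at the right and the TMM median of all genes, 0.62, as a dashed line. Adipocyte and brown fat lists lie at 5.05 and 4.74, the acinar lists at -9.73 and -10.29, and the ribosomal protein, macrophage, mesothelial and sex-linked lists change sign with the scaling.

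Erythroid genes took 2.06% to 13.5% of vascular counts and 0.0926% to 0.867% of adipose-labelled ones, and 4 of 9 were higher in vascular (2 without wild-type adipose-labelled replicate 1, and 3 to 5 without any other library). *Hbb-b1*, adult beta globin, was at 9041 to 111300 CPM against 538 to 6905 CPM (log2 fold change 2.71, SE 0.41, adjusted p = 5.46e-09, edgeR), but with RLE scaling its adjusted p was 0.116. *Hba-a1*, alpha globin, was at 1281 to 7232 CPM against 9.95 to 521 CPM. *Hbb-bs*, another beta globin symbol, was read almost only in wild-type replicate 2 of either tissue (1257 counts in vascular and 35 in adipose-labelled), and *Hbb-b1* was lowest in those 2 libraries. Wild-type vascular replicate 1 had 3 *Hbb-bs* counts beside 23792 of *Hbb-b1*. The beta globin symbols denote closely similar genes, so reads may be split among them, and the cause of this pattern was not tested.

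Other tissues left small traces. Cardiomyocyte genes took 0.262% of the counts of *Scx*-/- vascular replicate 3 and at most 0.0129% in the other 11 libraries. The atrial light chain *Myl7* had 37 counts there (414 CPM) and 0 in the other 11, and the troponin *Tnnt2* 43 counts (481 CPM) and 0 in the other vascular libraries. Without that library 305 genes were higher in vascular and 209 in adipose, against 311 and 238 with it. Of 13 skeletal muscle, 10 B cell, 10 T cell, 12 macrophage, 4 mast cell, 6 Schwann cell, 7 enterocyte, 5 keratinocyte and 21 Hox genes tested, 88 in all, none was called in either direction by edgeR with TMM scaling over all libraries. Library totals called 3 Hox, 2 Schwann cell and 1 skeletal muscle gene higher in vascular. RLE scaling, filterByExpr and TMM without the acinar lists each called 1 skeletal muscle gene higher in adipose. With TMM scaling over all libraries, 8 of the 88 were higher in vascular and 15 in adipose at an unadjusted p under 0.05, and DESeq2 called 0 and 7. Of the 7, 6 were among the 13 skeletal muscle genes, whose median log2 fold change was -2.02. Of 6 mesothelial genes 2 were higher in adipose, and of 11 immediate early and heat shock genes 2 in vascular (0 with a replicate block).

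Cytosolic ribosomal protein genes took similar shares, 0.811% to 1.48% of vascular and 0.945% to 1.49% of adipose-labelled counts. By TMM 6 of 73 were higher in adipose and none in vascular (median log2 fold change -1.18), while by library totals the median was 0.22, 0 were called higher in adipose and 1 in vascular. *Rpl41* was at 692 to 988 CPM in the adipose-labelled and 113 to 570 CPM in the vascular libraries (log2 fold change -2.56, SE 0.52, adjusted p = 7.76e-05, edgeR, and 0.148 by library totals). *Rps14* was at 621 to 1068 CPM and 382 to 1348 CPM, overlapping, and did not pass (adjusted p = 0.0569). That held in 10 of 22 alternative settings, while by DESeq2 (adjusted p = 2.22e-05) and with RLE scaling (0.00568), among others, it was called higher in adipose. The direction of the list thus depended on the scaling.

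Several genes outside all lists had a large vascular excess in CPM. *Slc36a2*, an amino acid transporter known from brown fat, was at 235 to 778 CPM and at 0 in all adipose-labelled libraries (at least 259-fold higher). *Pi15*, a peptidase inhibitor, and *Ncam1*, an adhesion molecule, were at 135 to 668 and 87.4 to 400 CPM against 0, at least 187-fold and 115-fold higher. *Nampt*, an enzyme of NAD synthesis that most cells use, was at 233 to 386 CPM in the vascular libraries and 0 in all adipose-labelled ones (at least 162-fold), and the kinase gene *Sik2* was at 177 to 330 CPM against 0 (at least 136-fold). *Gpx3*, a secreted glutathione peroxidase, was at 2671 to 8868 CPM against 7.14 to 70.3 CPM.

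The most abundant genes without a call were *Fth1*, *Actb*, *Malat1*, *Cst3* and *Apoe*, which most tissues express. Their CPM did not overlap between tissues, as with *Actb* at 2903 to 5305 CPM in vascular and 307 to 1318 CPM in adipose-labelled libraries. After TMM scaling their log2 fold changes were 0.17 to 1.13, around the median of all genes, with adjusted p of 0.190 to 0.872 (edgeR). With library totals all of them were called higher in vascular, and *Actb*, *Malat1* and *Apoe* were also called after thinning.

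The tissue difference itself depended on genotype for 1 gene, *Ech1*, an enzyme of fatty acid oxidation (0.00723% of the genes tested, edgeR interaction test, and 993 genes at an unadjusted p under 0.05). Its CPM was 2461, 1985 and 1722 in wild-type and 1650, 2321 and 660 in *Scx*-/- vascular libraries. In the adipose-labelled libraries it was 0, 9.95 and 0 CPM in wild-type and 75.1, 45.0 and 68.2 CPM in *Scx*-/- mice. The vascular-over-adipose log2 fold change was lower by 5.81 in *Scx*-/- mice (adjusted p = 0.0444). The wild-type adipose-labelled values rested on 1 count over 3 libraries, which were shallower than the *Scx*-/- ones, and depth and genotype cannot be told apart here. Its adjusted p was 0.00201 to 0.354 without single libraries, lowest without adipose-labelled wild-type replicate 2 and highest without wild-type vascular replicate 1. It was 0.00355 after filterByExpr, 0.175 with a replicate block, 0.741 by DESeq2, 0.149 with RLE scaling (DESeq2's median-of-ratios factors), 0.503 with library totals and 0.867 after thinning all libraries to 77132 counts.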

How the data were processed

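The 12 libraries were whole-tissue RNA read by MuSeq, and the authors aligned the reads to mm10 with Bowtie2 and counted them with HTSeq. The deposited values are raw counts per gene symbol, while no source used here names the annotation, strand setting or duplicate handling. Bowtie2 is not splice-aware, so reads over exon junctions may be missed. Groups were taken from the labels, and no library repeated another. Genes with a count in any of the 12 libraries were tested with edgeR 4.0.16 (R 4.3.3; TMM scaling, quasi-likelihood test, tissue with genotype as a covariate, and in a second fit their interaction), with Benjamini-Hochberg adjustment over all 13838 genes and a threshold of 0.05. The steps were run on simulated counts drawn from a single mean profile for both tissues, apart from a set of changed genes. Those counts lack the acinar excess of the adipose-labelled libraries, so that run cannot decide between scalings. CPM were computed from each library's total, in Python 3.11.15, and list shares as percent of it. The SE given with log2 fold changes is not an output of edgeR. It was computed afterwards, as the absolute log2 fold change over the square root of the quasi-likelihood F, and is an approximation. Alternatives were RLE scaling, library totals, TMM without the acinar lists, filterByExpr, DESeq2 1.42.0, a replicate block, thinning to 77132 counts, each genotype alone, no genotype term and leaving out each library.

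Genes could be named, and not all were, by rule: *Scx*, up to 6 members of each list by mean CPM (any of the acinar transcription factor, cytochrome c oxidase isoform and white fat lists), up to 12 called genes in each direction by mean CPM and 8 by fold change (from 100 mean CPM) among those without overlap, genes called for the interaction, and the 5 most abundant without a call outside all lists. The comparison, its lists and its members were chosen with earlier results of these data known. The mitochondrially encoded list had no member in the table and is not reported. The values of 2 genes are not reported here.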

Additional observations from a re-analysis of the deposited data

Results flagged for a closer look

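In 24 groups of 6 values (the shares of 12 gene lists in each tissue) the highest or lowest library was compared with the spread of the others, and 5 stood apart. Chance would give about 1 in 20, but the groups share libraries and are not independent, so the 5 were not tested against that rate. Pancreatic digestive enzymes took 0.457% of counts in *Scx*-/- vascular replicate 1, above the other 5 vascular libraries (0.0558% to 0.149%). Hepatocyte genes took 0.436% in *Scx*-/- vascular replicate 3 and 0.319% in *Scx*-/- adipose-labelled replicate 3, each the highest of its 6. Cardiomyocyte genes took 0.262% in *Scx*-/- vascular replicate 3, the library that also held the hepatocyte genes. Endothelial genes took 0.0513% in wild-type adipose-labelled replicate 3, the highest of its 6, the library that also held 27 of the 28 *Ptf1a* counts. For *Ech1* the tissue difference differed between genotypes, with an interaction of -5.81 on the log2 scale (adjusted p = 0.0444, edgeR).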

How the results depend on the processing

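The 311 genes higher in vascular and 238 higher in adipose became 1686 and 154 with library totals as scaling, 553 and 398 by DESeq2, 205 and 158 with a replicate block, and 102 and 156 within *Scx*-/- libraries, and within wild-type libraries 223 and 96. Of them, 311 and 154 were shared with library totals, 304 and 217 with DESeq2, and 202 and 157 with the replicate block. Same-numbered libraries of the 2 tissues correlated at -0.005 to 0.036, and no label ties them to 1 mouse, so the numbers were not taken as pairs. As a hint from the data that they may share a mouse, the presence or absence of *Xist* matched in all 6 same-numbered pairs, and *Hbb-bs* was above 3 counts only in wild-type replicate 2 of both tissues (1257 and 35). The correlations, though small, were also highest at the same number for every vascular library but wild-type replicate 1, which matched replicate 2 best. If same-numbered libraries share a mouse, the replicate block would be the fitting model. Leaving out single libraries gave 230 to 305 and 186 to 245. The 1 gene called for the interaction became 4 (RLE), 3 (library totals), 9 (filterByExpr), 0 (TMM without the acinar lists, replicate block, thinned, with 967, 250 and 620 at an unadjusted p under 0.05), 1 other by DESeq2 and 0 to 9 without single libraries. On counts without the acinar lists, the adipose-labelled medians were 0.0135% for brown fat, 0.180% for general adipocyte, 0.186% for smooth muscle, 0.196% for vessel matrix and 0.797% for islet genes, and the vascular adipocyte median without ribosomal RNA genes was 3.50%. Signs that turned were those of *Calr* (0.95 with library totals), *Tnnt2* (-0.75 with the replicate block, -2.77 within wild-type libraries, -2.71 to 4.34 without single libraries, lowest without *Scx*-/- vascular replicate 3), *Hbb-bs* (-2.13 to 6.78 without single libraries, lowest without wild-type vascular replicate 2) and *Cst3* (-0.43 within *Scx*-/- libraries, -0.021 to 0.34 without single libraries, lowest without wild-type adipose-labelled replicate 3), none of them called. Of 106 called genes followed one by one, 19 lost the call within *Scx*-/- libraries, 7 within wild-type libraries, 3 with library totals, 2 with RLE and 0 by TMM without the acinar lists. Among lists, within *Scx*-/- libraries 7 respiratory chain, 5 brown fat, 8 fatty acid oxidation and 8 citric acid cycle genes were called higher in vascular, against 31, 10, 14 and 13 over both genotypes, and 1 gastric gene higher in adipose, against 5. With a replicate block the respiratory chain count was 21, the fibroblast count 3, and that of the endoplasmic reticulum genes 9. DESeq2 gave 24 ribosomal protein and 4 duct genes higher in adipose. Where no setting's construction shows it, the cause was not tested. Depth limits genes read below about 3 counts over a group, 2.87 CPM in vascular and 1.86 CPM in adipose-labelled libraries.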

Other observations

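Genes outside the lists, chosen after their values were seen, are given here one by one, and no group of them was tested. In the vascular libraries *Pck1*, which makes glycerol for lipid storage in fat, was at 1691 to 4628 CPM against 0 to 74.3 CPM (log2 fold change 5.76, SE 0.63, adjusted p = 1.11e-17, edgeR). *Pdk4*, which turns cells from glucose to fatty acid oxidation, was at 851 to 1185 CPM against 0 to 25.0 CPM. *Ppara*, the nuclear receptor of fatty acid oxidation genes, was at 22.4 to 394 CPM against 0, at least 124-fold higher (not called within *Scx*-/- libraries alone, adjusted p = 0.151, edgeR). *Ldhb*, lactate dehydrogenase B, was at 930 to 1971 CPM against 0 to 23.98 CPM, and *Cebpb*, a transcription factor of fat, at 570 to 1617 CPM against 0 to 39.0 CPM. The values of none of these overlapped between the tissues.

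In the adipose-labelled libraries *Cckar*, the cholecystokinin receptor of acinar cells, was at 104 to 592 CPM and at 0 in all vascular ones, at least 118-fold higher. *Aqp12*, an acinar aquaporin, was at 271 to 596 CPM against 0, at least 159-fold higher. Also higher there were *Gamt*, which makes creatine (273 to 677 CPM against 0 to 124 CPM), *Asns*, asparagine synthetase (209 to 697 CPM against 0 to 85.1 CPM), *Cbs* and *Psat1*, with log2 fold changes of -4.61, -4.60, -5.83 and -6.08. Within wild-type libraries alone *Psat1* was not called (adjusted p = 0.137, edgeR). The secretory pathway genes *Serp1*, *Fkbp11* and *Derl3* had log2 fold changes of -3.83, -6.01 and -6.39. *Mt1*, a metallothionein, was at 1241 to 4141 CPM against 364 to 1431 CPM, overlapping (log2 fold change -3.32, SE 0.48, adjusted p = 8.22e-10, edgeR).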
